A study of Arabidopsis thaliana with 6 samples.

Results

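CLE41 and CLE44 are the Arabidopsis genes whose products both carry the peptide TDIF, a short signal that cells of the phloem release and that cambium cells perceive. Both genes were chosen by name, and each was read from the single probe set that the platform's gene table gives it, 257600_at for CLE41 (locus AT3G24770) and 254761_at for CLE44 (locus AT4G13195). They were 2 of the 13355 genes to which this table gives a probe set of their own, and below only such genes are called measured. The table names no gene for 8730 of the 22746 probe sets tested. A gene that is not measured here may therefore still be on the arrays. A probe set is a group of short DNA probes on the array that together measure 1 transcript, and its value here is an expression level on the log2 scale, so that a step of 1 is a doubling.

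The samples were pieces of 3 mm from the stem of wild-type Col plants, taken 2.5 cm above the stem base. The plants had grown for 3 weeks in short days (8 h light, 16 h dark) before the switch to long days (16 h light, 8 h dark). In the NPA group, stems received 10 mg/g of NPA (N-1-naphthylphthalamic acid), which blocks the directed transport of the hormone auxin along the stem, and were collected after 7 days. The other group was mock-treated, also for 7 days, and each group had 3 samples with 1 Affymetrix array each. The study used NPA to induce secondary growth, and the question for CLE41 and CLE44 is how far the level of each transcript differed between the treated and the mock stems, and whether the genes responded alike.

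TDIF belongs to the CLE family of plant peptides, which are cut out of longer precursor proteins and act outside the cell. It binds the receptor kinase PXY (also called TDR) on cambium cells, which keeps these cells from turning into xylem and promotes their division, the latter through the transcription factor WOX4. Source and target of the signal therefore lie in neighbouring tissues, the peptide coming from the phloem side of the cambium. PXY and WOX4 themselves were not analysed here.

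CLE44 was higher in every NPA stem than in any mock stem. Its values in mock were 7.67, 7.16 and 7.27, and in NPA they were 9.23, 9.39 and 9.25 (log2, replicates 1 to 3). The lowest NPA array lay 1.56 above the highest mock array, against a range of 0.52 within mock and 0.16 within NPA. The group means were 7.37 ± 0.27 and 9.29 ± 0.09 (SD, n = 3 each), so the mock samples were the more spread out, with mock 1 standing above the other two. CLE44 rose 3.79-fold, with a 95% interval from 2.99 to 4.80. On the log2 scale the difference was 1.92 with a standard error of 0.15 (limma, adjusted p = 0.00236). Of the 22746 probe sets tested, 2.76% were called higher in NPA at an adjusted p under 0.05, and CLE44 ranked 22nd by size of difference and 17th by p-value among all of them.

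CLE41, the other TDIF gene, was also higher in each NPA stem, by a smaller step. Its values were 9.03, 9.01 and 8.92 in mock and 9.36, 9.71 and 9.27 in NPA. The groups did not overlap, but the gap between the lowest NPA and the highest mock array was only 0.24, less than the range of 0.44 within NPA. Such separation, with NPA above mock, was seen in 14.8% of all probe sets. The means were 8.99 ± 0.06 and 9.45 ± 0.23 (SD, n = 3 each). They differed by 0.46 on the log2 scale (standard error 0.13), or 1.37-fold, with a 95% interval from 1.11 to 1.70. It did not pass the test over all probe sets (limma, adjusted p = 0.132), although its unadjusted p of 0.00883 was under 0.05, as it was for 16.3% of probe sets. By size of difference CLE41 ranked 1469th.

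**Figure D1:**
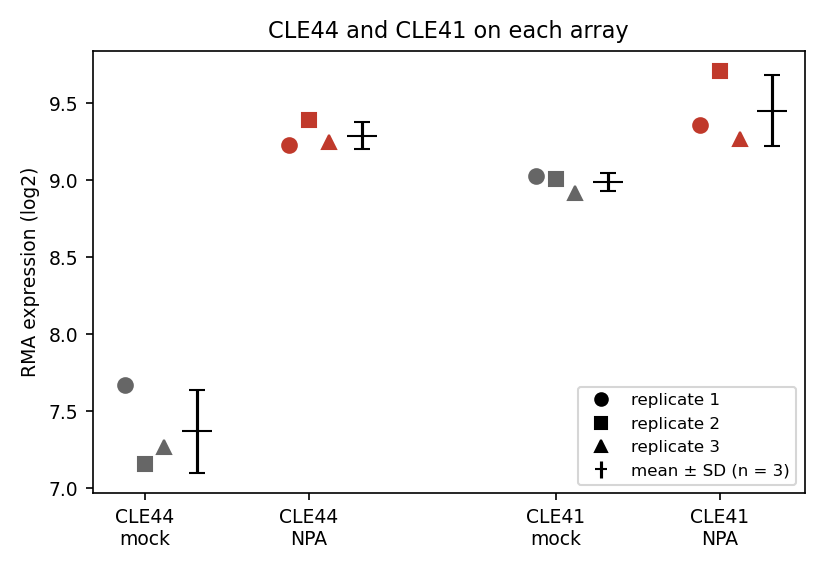
Expression of CLE44 and CLE41 (log2 RMA value, vertical axis) on the 3 mock arrays (grey) and the 3 NPA arrays (red), with symbols for the replicates and black bars for the mean ± SD. CLE44 goes from a mean of 7.37 to 9.29 and CLE41 from 8.99 to 9.45, and in both genes all NPA points lie above all mock points.

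The spread lay in different places for the 2 genes. In mock, the deviations of CLE44 from its group mean ran from -0.21 to 0.31, while those of CLE41 stayed between -0.06 and 0.04. In NPA this was turned round, with CLE44 between -0.06 and 0.10 and CLE41 between -0.18 and 0.26. NPA 2 was the highest NPA array for both genes, and mock 1 the highest mock array for both. Without NPA 2 the CLE41 difference was 0.33 (limma, adjusted p = 0.252) and that of CLE44 1.87 (adjusted p = 0.0167).

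In mock, CLE41 had the higher value of the pair. On these arrays CLE41 lay above 84.9% to 86.3% of the probe sets in mock and above 87.6% to 91.5% in NPA. CLE44 lay above 61.7% to 69.8% in mock and above 87.4% to 89.1% in NPA. Neither gene was therefore dim in mock, where the lower quartile of all probe sets was 4.22. Probe sets bind their targets with different strength, so this order of values is not an order of transcript amounts, and only the change of each gene can be set against that of the other.

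The step from mock to NPA was larger for CLE44 than for CLE41 on these arrays. The CLE44 value minus the CLE41 value of the same array was -1.36, -1.85 and -1.66 in mock and -0.13, -0.32 and -0.02 in NPA. The 2 groups of gaps were far apart, at -1.62 ± 0.25 in mock and -0.16 ± 0.15 in NPA (SD, n = 3 each). The change in the gap was 1.46 with a standard error of 0.17 and a 95% interval from 1.0 to 1.93, so that the fold change of CLE44 was 2.76 times that of CLE41 (95% interval 1.99 to 3.82). In the two-sided exact permutation test over the arrays this gave p = 0.1, the smallest value that 3 arrays against 3 allow, so this test cannot reach 0.05. With any 1 array left out the change in the gap stayed between 1.35 and 1.60.

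**Figure D2:**
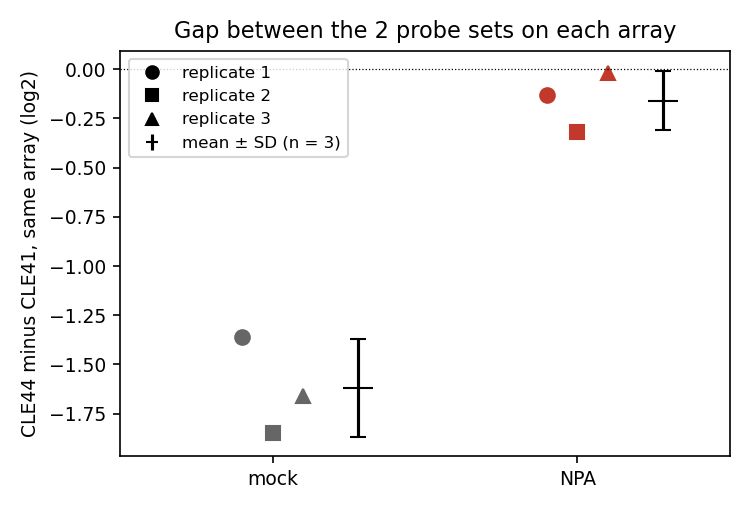
Value of CLE44 minus the value of CLE41 on the same array (log2, vertical axis) for the 3 mock and 3 NPA arrays, with black bars for the mean ± SD. The gap goes from -1.62 in mock to -0.16 in NPA, and a value of 0 (dotted line) means equal probe set values, not equal transcript amounts.

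Pearson's r across probe sets was between 0.982 and 0.993 for any pair of the 6 arrays. Mock 1 and NPA 3 stood apart from the other arrays on the second principal component, which held 21.9% of the variance. Without these 2 arrays CLE44 differed by 2.10 (limma, adjusted p = 0.0129) and CLE41 by 0.57 (adjusted p = 0.164). The array medians were 0.11 higher in NPA than in mock on the log2 scale, and with each array centred on its median CLE44 differed by 1.81 (adjusted p = 0.00235) and CLE41 by 0.35 (adjusted p = 0.274).

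CLE44 was the 1 measured gene of the CLE family that passed the test. Of 31 CLE genes in the reference table, CLV3 included, the platform's gene table gives 7 a probe set of their own. The rest were not read and may be among the 8730 probe sets that it leaves unnamed, so their response is unknown. Of the 7 measured genes 1 rose and none fell, where 2.76% of all probe sets were called higher and 0.242% lower. The other 5, besides CLE44 and CLE41, had differences from -0.48 to 0.13 with a median of -0.03, and all 5 had mock and NPA values that overlapped, where 22.3% of all probe sets were separated. None of these 5 was called by limma, also not at an unadjusted p under 0.05, a level that 16.3% of all probe sets reached. The median over all probe sets tested was 0.016.

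CLE21 was the only one of the 5 with values near those of the TDIF genes. It read 8.57, 7.79 and 8.70 in mock and 7.71, 7.64 and 8.27 in NPA, a difference of -0.48 with a standard error of 0.27 (limma, adjusted p = 0.439). The NPA values lay mostly low, but mock 2 fell among them. Without mock 2 the difference was -0.76 (adjusted p = 0.179), and without mock 3 it was -0.30 (adjusted p = 0.665). CLE26 read 6.18, 5.98 and 6.23 in mock and 6.50, 6.08 and 5.54 in NPA, so its NPA values straddled those of mock (difference -0.09, adjusted p = 0.892).

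The other members were dim. CLV3, which limits the number of stem cells in the shoot meristem, was at 3.62 ± 0.10 in mock and 3.75 ± 0.13 in NPA (SD, n = 3 each). CLE40, which acts in the root meristem, was at 3.30 ± 0.01 and 3.34 ± 0.06. CLE27 was at 4.10 ± 0.11 and 4.07 ± 0.16. These levels lie below the lower quartile of 4.22, and RMA values give no detection call, so a change of these 3 transcripts may not be visible.

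Of 31 genes listed for TDIF signalling, which act in reception of the peptide, in its downstream regulators and in the cambium, 4 were measured. Among them 1 rose and none fell, beside 2.76% and 0.242% of all probe sets, and the median difference was 0.24. MOL1, a receptor kinase gene that limits cambium activity, read 7.26, 7.03 and 7.33 in mock and 7.87, 7.81 and 7.94 in NPA. Its NPA values all lay above mock, as in 14.8% of all probe sets, and it rose by 0.67 with a standard error of 0.11 (limma, adjusted p = 0.0209). This call was lost without any single array except mock 3, with adjusted p up to 0.0773, and after median centring of the arrays (0.56, adjusted p = 0.0515). Over all fits with 1 array left out, the one without mock 3 included, the difference of MOL1 ran from 0.58 to 0.73. The study may have picked MOL1 from these samples, so its rise is not independent evidence.

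Neither of the measured relatives of the TDIF receptor passed the test. PXL1, a PXY-like kinase gene, read 5.42, 5.20 and 4.95 in mock and 5.15, 5.23 and 5.24 in NPA (difference 0.01, limma, adjusted p = 0.973). PXL2, the other PXY-like gene, was dim at 3.49 ± 0.16 in mock and 3.49 ± 0.03 in NPA (SD, n = 3 each, limma, adjusted p = 0.984). The 95% intervals of these differences ran from -0.29 to 0.32 for PXL1 and from -0.25 to 0.24 for PXL2. Their small differences changed sign under some settings. ORA47, a transcription factor gene of the ERF family, read 4.91, 4.62 and 5.56 in mock and 4.89, 6.53 and 5.03 in NPA, a difference of 0.46 (limma, adjusted p = 0.674) that rested on NPA 2 and was -0.07 without that array.

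A list meant for receptors and co-receptors of other CLE peptides held 12 genes, of which 3 were measured. None of the 3 was called by limma, while 2 had an unadjusted p under 0.05. Over all probe sets 3.00% were called, 16.3% had such a p and 22.3% had separated groups. The gene table used here gives these 3 loci no symbol. They were listed from memory, so whether each codes for such a receptor was not checked. AT2G23950 read 6.41, 6.20 and 6.57 in mock and 6.97, 6.91 and 6.91 in NPA, higher on all NPA arrays (difference 0.53, limma, adjusted p = 0.0582), and it was called when only the brighter probe sets were tested (adjusted p = 0.0469). AT1G34110 read 7.28, 6.96 and 6.91 in mock and 6.58, 6.49 and 6.40 in NPA, lower on all NPA arrays (difference -0.56, adjusted p = 0.0628). AT5G45780 differed by -0.07 (adjusted p = 0.859) with overlapping groups.

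**Figure D3:**
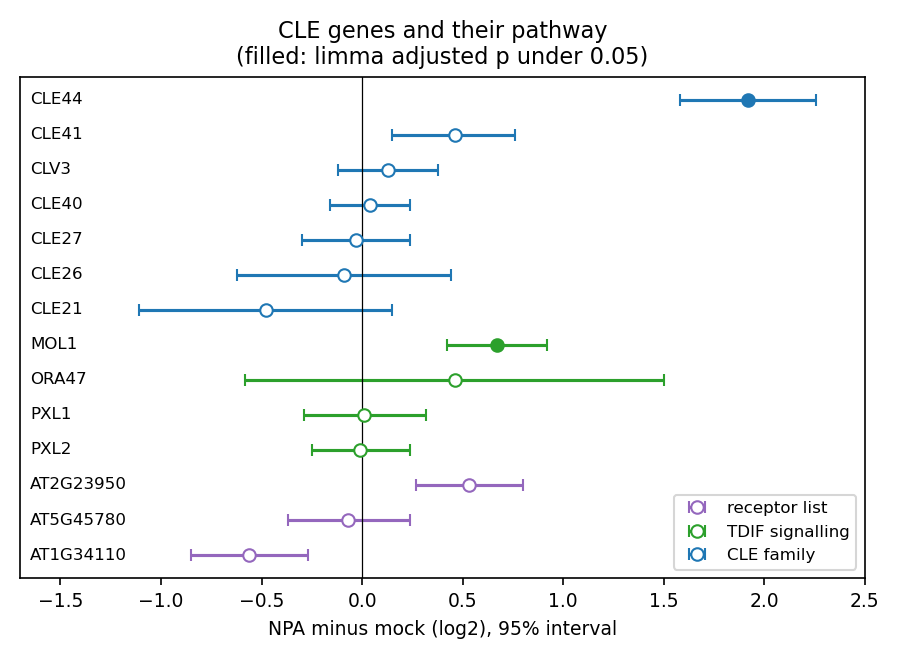
NPA minus mock difference (log2, horizontal axis) with its 95% interval from limma for the measured CLE genes (blue), genes of TDIF signalling (green) and genes on the receptor list (purple), with filled points for an adjusted p under 0.05. CLE44 at 1.92 and MOL1 at 0.67 are the filled points, and CLE41 at 0.46 has an interval above 0 but is not called.

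The TDIF genes are known as phloem genes, and the stem pieces hold phloem beside xylem, fibres, cortex and epidermis. In such whole pieces more cells of a type and more RNA per cell cannot be told apart. Of 21 phloem markers listed, 3 were measured, and 1 rose, beside 2.76% of all probe sets, with differences from -0.95 to 1.15. OPS, needed for sieve elements to form, read 5.43, 5.34 and 5.71 in mock and 6.70, 6.29 and 6.92 in NPA, and rose by 1.15 with a standard error of 0.18 (limma, adjusted p = 0.0191). Leaving out mock 1, mock 2 or NPA 1 ended this call, the adjusted p then reaching 0.0765.

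SWEET11, a sucrose exporter gene of the phloem, had lower values in NPA without passing the test. It read 7.37, 7.27 and 7.49 in mock and 6.67, 6.78 and 5.83 in NPA, a difference of -0.95 with a standard error of 0.24 (limma, adjusted p = 0.0909). Without NPA 3, the lowest array, it was -0.65 (adjusted p = 0.0460). AT5G02460, the remaining locus on the phloem list, differed by 0.08 (adjusted p = 0.779). The phloem list therefore held 1 member above and 1 below mock on all NPA arrays, and its median difference was 0.08. Over all probe sets 7.45% lay below mock on every NPA array and 22.3% were separated in either direction. The part of phloem amount in the rise of CLE44 was not tested.

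Among markers of other tissues, 14 genes were listed for xylem and fibre walls and 3 were measured. These were IRX10, IRX15 and IRX15-L, which act in xylan synthesis. All 3 rose, by 0.97 to 1.40, where 2.76% of all probe sets were called higher. This compares with 1.92 for CLE44 and 0.46 for CLE41. NPA 2, highest of its group for both TDIF genes, was also the highest NPA array for these 3 wall genes. The same held for SWEET11, AT5G02460 and the measured genes of the green cortex, with PRK of the Calvin cycle at 10.40. OPS and MOL1 instead had their lowest NPA value on that array, at 6.29 and 7.81. For the green cortex 7 genes were listed and 4 measured. None of the 4 was called by limma or had an unadjusted p under 0.05, with differences from 0.08 to 0.41. Over all probe sets 3.00% were called and 16.3% had such a p. PRK was above mock on every NPA array, as were 14.8% of all probe sets. ACR4, the 1 measured gene of 6 listed for the epidermis, was dim at 4.17 in mock and differed by -0.02 (limma, adjusted p = 0.965). For the starch sheath 1 of 3 listed genes was measured, SCL23, which differed by -0.51 (limma, adjusted p = 0.0594). SCL23 was below mock on every NPA array, as were 7.45% of all probe sets, and was lowest on NPA 2. The part of these tissues in the CLE44 and CLE41 differences was not tested.

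The genes with profiles most like CLE44 over the 6 arrays were AT5G45700, AT5G09300, AT2G44830, SAH7 and GH9B13, with Pearson's r from 0.995 to 0.996 among 13353 genes compared. All 5 were called higher in NPA, and such an r mostly reflects the step between the groups, so that 217 genes had an r over 0.95. The steps differed in size. AT5G45700 rose by 0.60 (limma, adjusted p = 0.0182) and GH9B13, a gene of the glycosyl hydrolase family that cleaves cellulose, by 2.37 (adjusted p = 0.00184), against 1.92 for CLE44. GH9B13 read 7.50, 7.17 and 7.01 in mock and 9.39, 9.80 and 9.60 in NPA. Its highest mock value was in mock 1 and its highest NPA value in NPA 2, as for CLE44, which choosing genes by r favours.

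The profiles most like CLE41 belonged to AT5G24510, AT3G22070, AT5G47530, AT2G03420 and AT1G74530, with r from 0.992 to 0.993. In all 5, NPA 2 was the highest array, as in CLE41, CLE44 and the 5 genes most like CLE44. Such a shared order follows largely from choosing genes by r, so it is not a separate result. None of the 5 genes most like CLE41 passed limma's test, with adjusted p from 0.0529 to 0.401. AT5G24510 was the closest, at 4.77, 4.81 and 4.60 in mock and 5.12, 5.47 and 5.0 in NPA, a difference of 0.47 beside 0.46 for CLE41. There were 79 genes with an r over 0.95 to CLE41, and 10 of them also had one over 0.95 to CLE44, which is 12.7% of the CLE41 set and 4.61% of the CLE44 set.

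**Figure D4:**
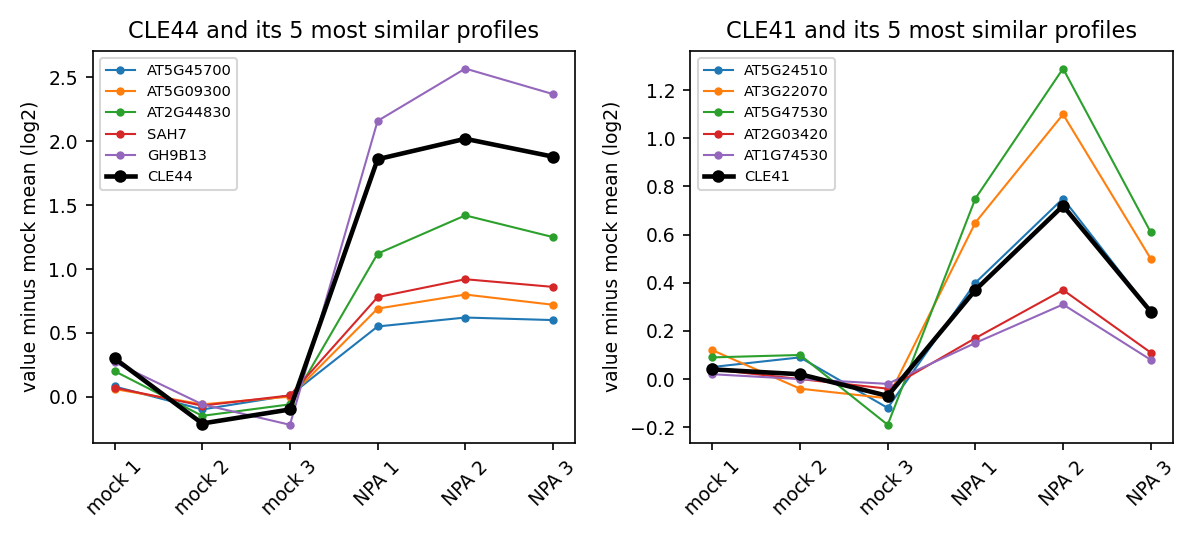
Value minus the mock mean (log2, vertical axis) on each of the 6 arrays for CLE44 (left, black) and CLE41 (right, black) with the 5 genes of highest Pearson's r to each; lines only join the points of 1 gene. In both panels NPA 2 is the highest NPA array for every gene shown, which choosing genes by r favours. CLE44 has a range of 0.16 within NPA against 0.44 for CLE41.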

How the data were processed

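Stem RNA of 3 mock and 3 NPA samples was measured on 6 arrays of 22810 probe sets. The deposited values are on the log2 scale and were made by the authors with RMA. That name and limma's come from the submitters' processing notes, per the labels, and carry no version. How probe sets were defined is not stated there. RMA is meant to put arrays on a common scale and gives no detection call. The deposited arrays were not fully equal, with medians 0.11 higher in NPA than in mock. Groups and replicate numbers came from the titles. The labels do not say whether replicates were separate plants, so p-values may measure technical spread, and the number of arrays limits precision.

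The 64 control probe sets were left out. NPA minus mock was fitted for the other 22746 in R 4.3.3 with the package limma 3.58.1. Benjamini-Hochberg adjustment covered all of these probe sets, and intervals for single genes are limma's. Of the 22746, 13513 had exactly 1 gene in the platform table, 503 several and 8730 none; symbols were updated from the TAIR10.1 gene table for all but 5 of the 13513. Listed genes without a probe set of their own in that table were not read, though they may be on the arrays. Each gene was read from its probe set with the highest mean. The gap between CLE44 and CLE41 was tested by exact permutation, and its interval comes from the spread of the gaps within groups.

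The named genes were CLE41, CLE44, the measured members of the CLE, TDIF signalling and receptor lists, the called members of tissue lists with up to 3 others of lowest p, and the 5 genes of highest r to each TDIF gene. Members and lists were chosen with earlier results of these data known. In simulated data for 3 NPA against 3 mock arrays of 22746 probe sets, 94% of 100 probe sets changed 2-fold and 100% of 100 changed 4-fold were called, and 16 of 210 calls were false. The simulated noise was normal and independent between probe sets and arrays, without shifts shared by a whole array, so these rates may not hold for the real arrays. Alternatives were a replicate block, other scalings, filters and eBayes settings, other thresholds, each array left out, another measure of likeness and, added after the data were examined, mock 1 and NPA 3 left out together.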

Additional observations from a re-analysis of the deposited data

How the results depend on the processing

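CLE44 kept its direction and its call under all 14 alternatives run, at 1.81 to 2.10 with adjusted p from 0.000903 to 0.0169, and CLE41 kept its direction and stayed uncalled under all 14, at 0.33 to 0.57 with adjusted p from 0.106 to 0.288. The change in the gap between them ranged from 1.35 to 1.60. The count of 683 called probe sets was 449 with a replicate block, 304 to 446 with single arrays left out, 397 without mock 1 and NPA 3 together, 225 at an adjusted p under 0.01 and 1208 under 0.1. Fits with fewer arrays have less power by construction, and for the replicate block the cause was not tested. Deviations of same-numbered arrays from their group means had r across probe sets of -0.256, 0.0503 and 0.0435. With 3 arrays per group these values cannot settle whether the numbers pair the samples. With the replicate block CLE44 differed by 1.92 (limma, adjusted p = 0.0125), CLE41 by 0.46 (adjusted p = 0.175) and the gap changed by 1.46. With arrays centred on their medians 80.1% of calls were higher in NPA, and with quantile normalization 84.5% of 560 calls, against 91.9% as deposited.

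Signs of small differences turned under some settings, and the cause was not tested. With arrays centred on medians CLE40 was at -0.07, PXL1 at -0.09 and AT5G02460 at -0.03. With quantile normalization PXL1 was at -0.06 and PXL2 at 0.01. Without mock 1 and NPA 3 CLE26 was at 0.18 and CLE27 at 0.05. With single arrays left out the range was -0.32 to 0.16 for CLE26, -0.11 to 0.05 for CLE27, -0.10 to 0.13 for PXL1, -0.05 to 0.08 for PXL2, -0.07 to 0.76 for ORA47, -0.18 to 0.03 for AT5G45780 and -0.01 to 0.14 for AT5G02460. By Euclidean distance 0 of the 5 genes most like CLE44 and 1 of the 5 most like CLE41 were the same as by r. CLE21 ranged from -0.76 to -0.30 and was called under no alternative, though its unadjusted p was under 0.05 without mock 2 (0.00835), without NPA 3 (0.0422), with the replicate block (0.025) and with median centring (0.0477). Signal limits CLV3, CLE40, CLE27, PXL2 and ACR4, which lay below the lower quartile.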
